A study of Mus musculus with 28 samples.

Results

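The genes described here encode amino acid and monocarboxylate transporters of the mouse solute carrier superfamily, measured in CD4+ T cells before and after stimulation through the T cell receptor. A gene was included if the array platform gave its probe set a single symbol beginning with Slc1a, Slc3a, Slc6a, Slc7a, Slc16a, Slc36a, Slc38a or Slc43a and a digit, whatever its level. This rule took 119 probe sets of 71 genes out of 17097 genes measured, and each gene was read through its brightest probe set by mean log2 intensity over 26 arrays. Of the 71, 42 had 1 probe set and 29 had several. Slc36a1os and Slc6a19os, transcripts named for the opposite strand of their neighbours, entered by symbol alone and are not known to encode transporters. Slc1a4 and Slc36a4 were not analysed here.

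Messenger RNA had been measured on Affymetrix arrays in total splenic CD4+ T cells of 12-week-old female mice, kept in RPMI medium. Sle1b.BACSlamf6-H1 (Sle1b.BAC below) is by its name the B6.Sle1b strain with a bacterial artificial chromosome, a large stretch of added genomic DNA, named for the H1 form of the surface receptor Slamf6. B6.Sle1b carries a lupus-linked interval of chromosome 1 on the C57BL/6 background, so Sle1b.BAC cells carry it too, and C57BL/6 was the wild type. Each strain gave unstimulated cells and cells held on plate-bound antibody 145-2C11 at 0.1 µg/ml, for 4 h or 24 h; it binds CD3, the signalling part of the receptor. The 26 arrays titled biological formed 9 groups, 8 of 3 arrays each and 1 of 2 arrays, C57BL/6 at 24 h. Whether each array had its own mouse is not in the labels, so the p-values below rest on sample-to-sample spread, part of which may be technical.

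Amino acid transporters bring in the building blocks of protein, and several of them set the leucine and arginine levels that the growth-controlling kinase complex mTORC1 reads at the lysosome. Many Slc7a light chains reach the cell surface only when bound to a heavy chain, Slc3a2 (also called CD98 or 4F2hc) or Slc3a1. The best known members of the Slc16a family move lactate, pyruvate and related acids together with a proton. They need the chaperones basigin or embigin to reach the membrane. Resting T cells are small and metabolically quiet, and activated T cells enlarge and divide, for which they take up large neutral amino acids, glutamine and arginine and release lactate.

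Background was set for each array at the 95th percentile of 23 control probe sets for non-specific binding and lay between log2 2.76 and 3.21. A gene counted as above it where the mean of a group exceeded the mean background of the group's own arrays. By this measure 32 of the 71 genes (45.1%) lay above background in all 9 groups, against 60.3% of all genes measured. A further 16 lay above it in some groups, and 23 in none. Those in none included 10 of 19 Slc6a genes, a family best known for neurotransmitter uptake, 4 of 6 Slc1a genes, most of which carry glutamate in the brain, and 4 of 15 Slc7a genes. All 3 Slc43a genes and 7 of 9 Slc38a genes lay above background in all 9 groups, as did 5 of 13 Slc16a and 2 of 4 Slc36a genes. Among the genes above background in no group were the leucine carrier Slc7a8 (LAT2), the lactate carrier Slc16a7 (MCT2) and the aromatic amino acid carrier Slc16a10, whose 26 values lay between 2.05 and 2.66 for Slc7a8, 1.90 and 2.42 for Slc16a7 and 2.12 and 3.07 for Slc16a10.

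The cells carried the markers of their label. The 7 measured markers of 8 listed for CD4 T cells lay above background in each strain at each time, and so did the 4 activation markers. The CD4 T cell markers had a median summed intensity of 7834 in unstimulated arrays, 6237 at 4 h and 6281 at 24 h. Of these markers Cd5 and Thy1 were higher at 24 h than unstimulated in each strain, and the others lower. For the activation markers the medians were 2728, 5150 and 2160, so that sum was lower at 24 h than in unstimulated cells. Its members differed. Il2ra and Egr2 were higher at 24 h than in unstimulated cells in each strain, and Cd69 and Nr4a1 were lower. In C57BL/6 the group mean of Il2ra was log2 4.73 unstimulated and 8.30 at 24 h, and that of Nr4a1 10.41 and 8.78. Markers of other cells were present and moved with time. The summed intensity of 2 measured plasma cell markers had a median of 4318 in unstimulated arrays, 4009 at 4 h and 755 at 24 h, and that of 2 erythroid markers 3344, 2982 and 1189. For 3 NK cell markers the medians were 248, 207 and 146, and for 3 B cell markers 308, 275 and 235. The B cell markers did not move together. At 24 h against unstimulated Ms4a1 was higher and Cd79b lower in each strain, with group means in C57BL/6 of 7.25 and 7.78 for Ms4a1 and 8.05 and 6.82 for Cd79b. Cd79a was lower in C57BL/6 and Sle1b.BAC and level in B6.Sle1b. Of the NK cell markers Klrd1 and Klrb1c were lower at 24 h in each strain, while Ncr1 stayed near background. The medians of 5 measured monocyte and macrophage markers were 67, 60.8 and 122, with Lyz2 called higher and Cd14 lower at 24 h against unstimulated, and those of 5 neutrophil markers 129.9, 139 and 217, with none called. At 24 h the monocyte and macrophage sum was 92.4 to 172 in Sle1b.BAC and 117 to 129 in B6.Sle1b, against 57.3 to 65.6 in C57BL/6. The part of these markers in the transporter results was not tested. In bulk RNA, fewer cells of a type and less RNA per cell cannot be told apart. The 75th percentile of intensity ranged from 34.2 to 53.3 over the arrays. Chosen as dim were Sle1b.BAC replicate 2 at 4 h (34.2), unstimulated B6.Sle1b replicate 3 (35.6) and unstimulated C57BL/6 replicate 2 (34.8), each far below the other arrays of its group, and many transporter values were low on these 3. B6.Sle1b replicate 3 at 24 h was as dim (35.6) but nearer to its group, and was kept. Results are also given without the 3 where that changes a call or moves a count by over 1.5 times.

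**Figure D1:**
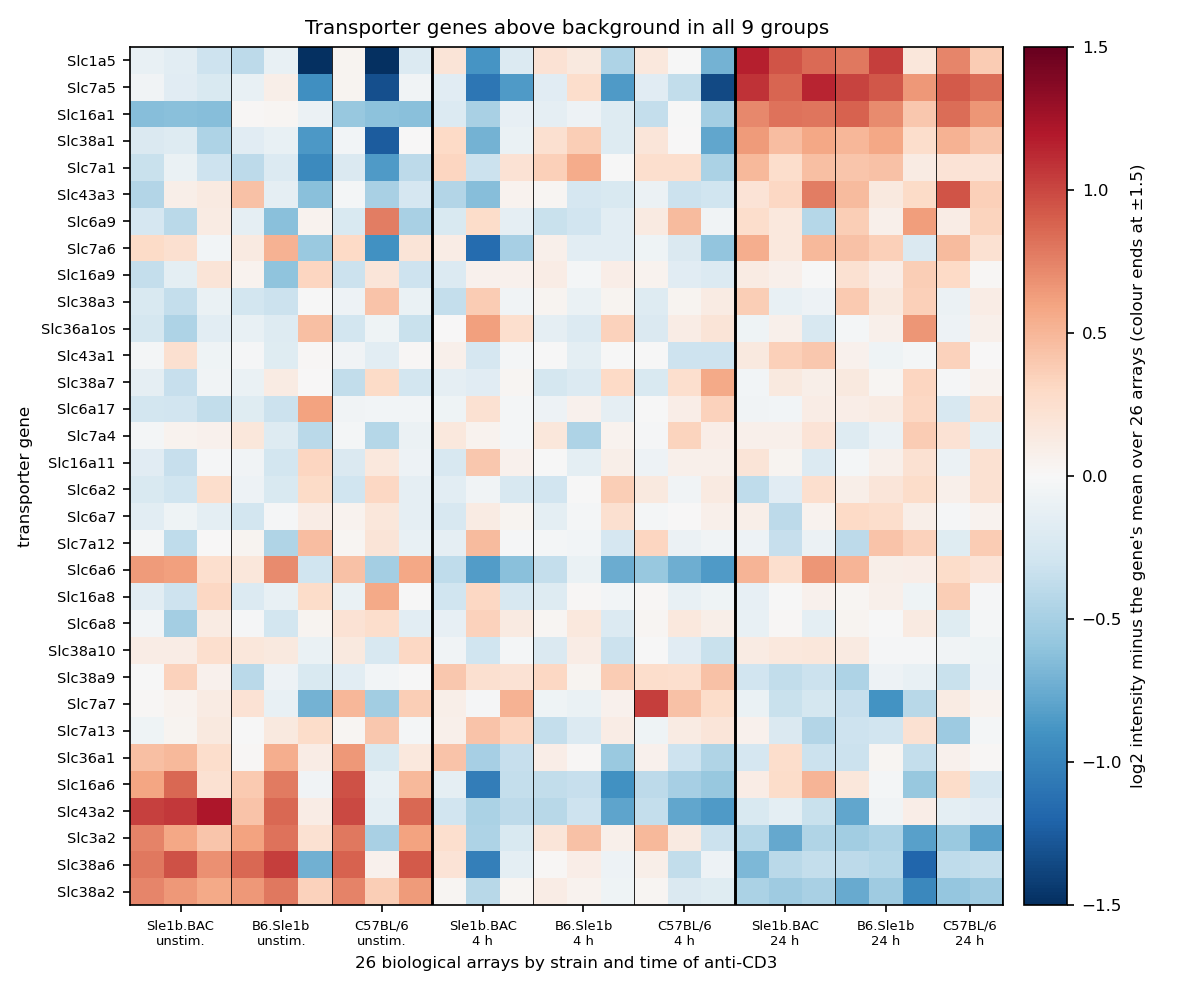
Log2 intensity of the 32 transporter genes above background in all 9 groups, as the difference from each gene's mean over 26 arrays (colour, ending at ±1.5), with genes down the page and arrays across it by time and strain. Slc1a5, Slc7a5 and Slc16a1 are red in the 24 h columns, and Slc3a2, Slc38a6 and Slc38a2 are red in the unstimulated columns and blue at 24 h; single pale or blue columns within a group are the dim arrays.

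The question was how the transporter genes respond to anti-CD3, averaged over the 3 strains, and whether the response differs by strain. No unstimulated cells were listed at 4 h or 24 h, so anti-CD3 and time in culture cannot be told apart. A response below is the change with both. One linear model (limma) was fitted to all genes, and a gene was called where its p-value, adjusted by the Benjamini-Hochberg method over all 17097 genes, was under 0.05. Differences are given on the log2 scale with the standard error of the fit. At 4 h against unstimulated, 3 transporter genes rose and 8 fell, or 4.23% and 11.3% of the 71, while 8.15% of all genes rose and 10.1% fell. At 24 h against unstimulated, 9 rose and 7 fell (12.7% and 9.86%), against 22.9% and 17.4% of all genes. At 24 h against 4 h, 11 rose and 4 fell (15.5% and 5.63%), against 20.5% and 14.1% of all genes. Rises were thus a smaller share of the transporter genes than of all genes in each comparison, and the shares that fell were close at 4 h and smaller at 24 h. Differences in those shares were not tested. Fewer transporter genes than genes in general lay above background, which bears on these shares. In a fit of genes above background in at least 1 group, 48 of them transporters, 3 rose and 8 fell at 4 h, against 11.3% and 14.3% of such genes. At 24 h 9 rose and 9 fell, against 30.5% and 23.6%, and at 24 h against 4 h 11 and 5, against 27.9% and 19.4%. The median log2 difference of the 71 genes was 0.03 at 4 h and 0.03 at 24 h against unstimulated and 0.03 at 24 h against 4 h, beside 0.02, 0.06 and 0.02 for all genes. A total of 24 transporter genes were called in at least 1 of the 3 comparisons and 47 in none. The share of all genes called in at least 1 is not given here, so this total is not read as a trait of the transporter genes. Of the 24, 19 lay above background in all groups, 4 in some and Slc38a5 in none. The 6 genes called at both 4 h and 24 h against unstimulated kept their direction. Without the 3 dim arrays, 19 genes rose and 9 fell at 24 h against unstimulated, when the shares of all genes were 31.1% and 21.1%. At 4 h, 5 then rose and 10 fell, against 11.9% and 16.5% of all genes. Single arrays also moved these counts by over 1.5 times: rises at 24 h numbered 15 without unstimulated B6.Sle1b replicate 3 and 14 without unstimulated C57BL/6 replicate 2, both dim. At 4 h, 5 rose without that B6.Sle1b array, and 5 fell without any 1 of Sle1b.BAC replicate 2, B6.Sle1b replicate 3 or C57BL/6 replicate 3 at 4 h, or unstimulated B6.Sle1b replicate 2 or C57BL/6 replicate 1. Falls at 24 h against 4 h numbered 7 without C57BL/6 replicate 2 at 24 h. Shares of all genes are not given for fits that left out 1 array, here or below, so those counts show only how calls moved.

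**Figure D2:**
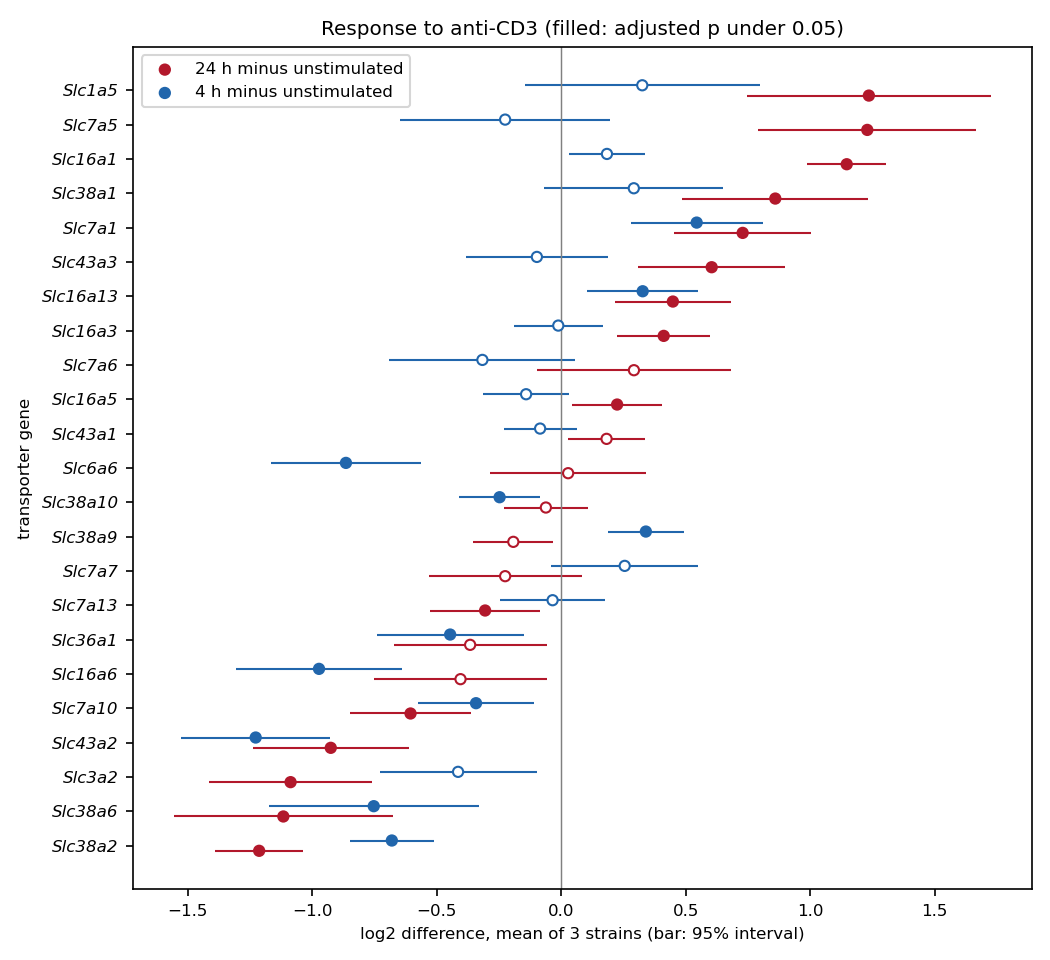
Log2 difference at 24 h (red) and at 4 h (blue) against unstimulated, as the mean of 3 strains with its 95% interval, for the transporter genes called in any mean response and above background in at least 1 group. Filled points have an adjusted p under 0.05; Slc1a5, Slc7a5 and Slc16a1 lie to the right at 24 h, Slc38a2, Slc38a6 and Slc3a2 to the left, and Slc6a6 and Slc16a6 are filled at 4 h but open at 24 h; points of Slc16a3, Slc16a5, Slc16a13 and Slc7a10 rest in part on groups at background.

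Promoters are shown for Slc16a1, Slc7a1 and Slc43a1, the genes called higher at 24 h against unstimulated (Slc16a1 and Slc7a1) or against 4 h alone (Slc43a1) that held a match to a motif searched, and for Slc38a2 and Slc3a2, which fell in each strain. Each is the 250 bases before the RefSeq transcript start, on the strand of the gene, in build GRCm38.p6, and for Slc7a1 it is that of 1 of its 2 starts. Capitals mark a match on either strand to CACGTG, the E-box bound by MYC, or to TGANTCA, the AP-1 site. TGATGNAA, an amino acid response element bound by ATF4, was searched as well. They are Slc16a1 at chr3:104638414-104638663 (+ strand), Slc7a1 at chr5:148399905-148400154 (- strand), Slc43a1 at chr2:84840073-84840322 (+ strand), Slc38a2 at chr15:96699729-96699978 (- strand) and Slc3a2 at chr19:8713898-8714147 (- strand).
Slc16a1: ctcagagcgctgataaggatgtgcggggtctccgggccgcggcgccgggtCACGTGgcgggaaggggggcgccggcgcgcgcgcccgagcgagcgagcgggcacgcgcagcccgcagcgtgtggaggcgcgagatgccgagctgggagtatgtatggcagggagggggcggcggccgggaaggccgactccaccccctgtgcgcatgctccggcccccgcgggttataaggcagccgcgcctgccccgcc
Slc7a1: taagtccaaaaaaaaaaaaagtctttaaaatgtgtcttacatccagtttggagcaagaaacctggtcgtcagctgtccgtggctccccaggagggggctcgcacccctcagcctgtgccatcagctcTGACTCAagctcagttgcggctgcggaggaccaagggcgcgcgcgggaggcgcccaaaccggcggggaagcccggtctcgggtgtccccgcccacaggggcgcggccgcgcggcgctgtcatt
Slc43a1: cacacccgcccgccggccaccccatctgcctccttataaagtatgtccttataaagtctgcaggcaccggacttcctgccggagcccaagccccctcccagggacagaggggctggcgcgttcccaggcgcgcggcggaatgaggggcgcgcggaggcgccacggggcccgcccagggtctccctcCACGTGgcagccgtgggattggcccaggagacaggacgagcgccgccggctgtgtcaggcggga
Slc38a2: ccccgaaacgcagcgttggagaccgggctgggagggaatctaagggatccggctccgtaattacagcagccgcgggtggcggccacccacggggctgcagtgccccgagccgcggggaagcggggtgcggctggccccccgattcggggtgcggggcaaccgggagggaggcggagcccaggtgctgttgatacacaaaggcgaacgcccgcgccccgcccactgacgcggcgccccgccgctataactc
Slc3a2: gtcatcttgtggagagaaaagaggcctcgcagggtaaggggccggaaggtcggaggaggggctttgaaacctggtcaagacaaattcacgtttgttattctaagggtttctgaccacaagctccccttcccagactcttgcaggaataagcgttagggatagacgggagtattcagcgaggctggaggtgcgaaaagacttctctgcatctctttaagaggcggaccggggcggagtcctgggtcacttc
The E-box of Slc16a1 lies at positions -200 to -195 from the start, the AP-1 match of Slc7a1 at -123 to -117 and the E-box of Slc43a1 at -64 to -59. No match lies in these windows of Slc38a2 and Slc3a2. Windows of 300 bases, 250 before to 50 after the start, were at hand for 50 of the 71 genes. An E-box lay in 10 of the 50 (20.0%) and in 8.09% of 27025 genes, an AP-1 match in 9 (18%) and 8.97%, and the ATF4 element in 3 (6.0%) and 4.51%. The motif differences were not tested, and a match is not evidence of binding. Among the called genes, E-boxes were also found in Slc36a1 and Slc38a5, an AP-1 match in Slc38a10 and the ATF4 element in Slc7a7. Each of these was called lower, Slc36a1 and Slc38a10 at 4 h, Slc38a5 at 24 h and Slc7a7 at 24 h against 4 h. Matches thus lay in genes that rose and in genes that fell. Slc7a11, a known ATF4 target, held that element at -66 to -59 and -47 to -40. Slc7a5, Slc1a5, Slc38a1 and Slc6a6 were not among the 50.

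The heavy chain Slc3a2 and its leucine-carrying light chain moved in opposite directions at 24 h. Slc7a5 (LAT1), which carries leucine and other large neutral amino acids, was 2.34-fold higher at 24 h than in unstimulated cells, whereas Slc3a2, its heavy-chain partner, was 2.12-fold lower. Log2 intensity of Slc7a5 in unstimulated arrays was 7.40, 7.29 and 7.23 in Sle1b.BAC, 7.34, 7.54 and 6.54 in B6.Sle1b, and 7.50, 6.14 and 7.40 in C57BL/6. At 4 h it measured 7.29, 6.37 and 6.61 in Sle1b.BAC, 7.29, 7.71 and 6.6 in B6.Sle1b, and 7.28, 7.09 and 6.10 in C57BL/6. At 24 h it measured 8.54, 8.33 and 8.60 in Sle1b.BAC, 8.47, 8.38 and 8.11 in B6.Sle1b, and 8.37 and 8.30 in C57BL/6. Every 24 h array lay above every unstimulated and every 4 h array, and the 2 lowest unstimulated values came from the dim arrays. Slc7a5 rose by 1.23 ± 0.21 against unstimulated (log2 ± SE of the fit, adjusted p = 4.02e-05) and by 1.45 ± 0.21 against 4 h (adjusted p = 5.57e-06). At 4 h against unstimulated it differed by -0.23 ± 0.20 and was not called (adjusted p = 0.554). Without the 3 dim arrays the 24 h rise against unstimulated was 0.98.

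Slc3a2 measured 9.86, 9.70 and 9.53 in Sle1b.BAC, 9.72, 9.93 and 9.34 in B6.Sle1b, and 9.90, 8.63 and 9.72 in C57BL/6 in unstimulated arrays. At 4 h its values were 9.37, 8.65 and 8.88 in Sle1b.BAC, 9.30, 9.56 and 9.19 in B6.Sle1b, and 9.60, 9.25 and 8.79 in C57BL/6. By 24 h they were 8.68, 8.34 and 8.66 in Sle1b.BAC, 8.60, 8.65 and 8.30 in B6.Sle1b, and 8.56 and 8.31 in C57BL/6. Within each strain all 24 h arrays lay below all unstimulated arrays, although the dim C57BL/6 array reached as low as the 24 h arrays of the other strains. The log2 difference was -1.09 ± 0.16 at 24 h against unstimulated (adjusted p = 4.61e-06) and -0.67 ± 0.16 at 24 h against 4 h (adjusted p = 0.00144). The 4 h difference of -0.41 ± 0.15 was not called (adjusted p = 0.0636), but was at -0.55 without the dim arrays (adjusted p = 9.89e-04). Both Slc7a5 and Slc3a2 have 1 probe set each, so neither direction could be set against another probe set. The plasma cell and erythroid marker sums fell over the same times as Slc3a2, and their part in its fall was not tested.

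The other Slc7a light chains followed no common direction. Slc7a6 (y+LAT2), an exchanger of cationic for neutral amino acids, measured 6.70, 6.66 and 6.37 in Sle1b.BAC, 6.55, 6.94 and 5.85 in B6.Sle1b, and 6.71, 5.51 and 6.61 in C57BL/6 in unstimulated arrays. The 4 h values were 6.52, 5.26 and 5.91 in Sle1b.BAC, 6.48, 6.25 and 6.25 in B6.Sle1b, and 6.35, 6.20 and 5.82 in C57BL/6. The 24 h values were 6.95, 6.57 and 6.89 in Sle1b.BAC, 6.86, 6.77 and 6.20 in B6.Sle1b, and 6.88 and 6.64 in C57BL/6. The groups overlapped, and 24 h exceeded 4 h by 0.61 ± 0.19 (adjusted p = 0.0126), with neither time called against unstimulated. A second Slc7a6 probe set gave 0.60 for the same comparison. Slc7a7 (y+LAT1), of the same transport type, was lower at 24 h than at 4 h by a log2 difference of -0.48 ± 0.15 (adjusted p = 0.0130), the opposite direction to Slc7a6. Its values were 2.94 to 4.15 (median 3.71) in unstimulated arrays, 3.55 to 4.69 (median 3.74) at 4 h and 2.76 to 3.78 (median 3.35) at 24 h. Slc7a10 (Asc-1), a carrier of small neutral amino acids, fell by a log2 difference of -0.34 ± 0.11 at 4 h (adjusted p = 0.0353) and by -0.61 ± 0.12 at 24 h (adjusted p = 1.54e-04). It lay at background in Sle1b.BAC at 24 h, so it was at least 1.46-fold lower at 24 h than in unstimulated cells, with values 3.18 to 4.2 (median 3.49) in unstimulated arrays, 2.95 to 3.47 (median 3.16) at 4 h and 2.30 to 3.26 (median 2.99) at 24 h. Its 4 h call was lost in 11 of 26 fits that each left out 1 array. Slc7a11 (xCT), which imports cystine in exchange for glutamate, lay above background in 5 of 9 groups, among them all 3 at 24 h, with values 2.63 to 3.58 (median 2.98) in unstimulated arrays, 2.77 to 3.49 (median 2.83) at 4 h and 2.82 to 3.62 (median 3.27) at 24 h. It was not called, at 0.25 ± 0.13 against unstimulated (adjusted p = 0.140) and 0.30 ± 0.13 against 4 h (adjusted p = 0.0845). Without the dim arrays both were called higher (adjusted p = 0.00217 and 0.00270), and no fold is given, as 2 of 3 groups lay at background at each earlier time. Slc7a13, an acidic amino acid carrier that pairs with Slc3a1, fell by a log2 difference of -0.31 ± 0.11 at 24 h (adjusted p = 0.0236), a call lost in 4 of those 26 fits and without the 3 dim arrays (adjusted p = 0.0686), and its second probe set gave 0.018.

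Large neutral amino acids also pass through Slc43a carriers, which need no heavy chain. Slc43a2 (LAT4) fell at 4 h in all 3 strains. It measured 6.13, 6.17 and 6.33 in Sle1b.BAC, 5.54, 5.97 and 5.22 in B6.Sle1b, and 6.11, 4.97 and 5.98 in C57BL/6 in unstimulated arrays. Arrays at 4 h gave 4.83, 4.64 and 4.72 in Sle1b.BAC, 4.70, 4.81 and 4.32 in B6.Sle1b, and 4.76, 4.34 and 4.26 in C57BL/6. Arrays at 24 h gave 4.88, 4.96 and 4.78 in Sle1b.BAC, 4.33, 5.06 and 5.21 in B6.Sle1b, and 4.96 and 4.94 in C57BL/6. No 4 h array reached the lowest unstimulated array, and the 24 h arrays stayed near the 4 h level. The log2 difference was -1.23 ± 0.14 or 2.34-fold at 4 h (adjusted p = 1.14e-06) and -0.93 ± 0.15 at 24 h (adjusted p = 2.02e-05). A second Slc43a2 probe set, above background in 8 groups, gave -1.43 and -1.07, both called. Another, above background in 1 group, gave -0.26, called, and -0.12. Slc43a1 (LAT3), the closest relative of Slc43a2 in transport, was higher at 24 h than at 4 h by 0.27 ± 0.07 (adjusted p = 0.00575), with values 4.70 to 5.16 (median 4.87) at 24 h and 4.45 to 4.84 (median 4.73) at 4 h. Slc43a3, which carries purine nucleobases and not amino acids, measured 4.91, 5.43 and 5.48 in Sle1b.BAC, 5.79, 5.20 and 4.71 in B6.Sle1b, and 5.31, 4.86 and 5.09 in C57BL/6 in unstimulated arrays. At 4 h it measured 4.90, 4.70 and 5.40 in Sle1b.BAC, 5.37, 5.09 and 5.12 in B6.Sle1b, and 5.26, 5.02 and 5.05 in C57BL/6. At 24 h it measured 5.55, 5.65 and 6.11 in Sle1b.BAC, 5.82, 5.49 and 5.63 in B6.Sle1b, and 6.28 and 5.70 in C57BL/6. All 24 h arrays lay above all 4 h arrays, and overlapped some unstimulated ones. It rose by 0.60 ± 0.14 against unstimulated (adjusted p = 0.00128) and by 0.70 ± 0.14 against 4 h (adjusted p = 3.33e-04).

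Slc7a1 (CAT1), the arginine and lysine importer, was the 1 transporter gene above background in all groups that rose by 4 h and stayed higher at 24 h. In unstimulated arrays it measured 8.17, 8.40 and 8.19 in Sle1b.BAC, 8.10, 8.29 and 7.55 in B6.Sle1b, and 8.28, 7.65 and 8.10 in C57BL/6. The 4 h values were 8.82, 8.17 and 8.71 in Sle1b.BAC, 8.86, 9.05 and 8.49 in B6.Sle1b, and 8.76, 8.76 and 8.03 in C57BL/6. The 24 h values were 8.98, 8.77 and 8.95 in Sle1b.BAC, 8.92, 8.94 and 8.62 in B6.Sle1b, and 8.71 and 8.71 in C57BL/6. The 4 h arrays overlapped the unstimulated ones through their lowest values, and the 24 h arrays did not. The rise was 0.54 ± 0.13 at 4 h (adjusted p = 0.00329) and 0.73 ± 0.13 at 24 h (adjusted p = 8.22e-05). A second probe set of Slc7a1 gave 0.26, not called, and 0.38, called, and the last, above background in no group, gave -0.055 and -0.059.

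Among the glutamine and small neutral amino acid carriers, Slc1a5 and Slc38a1 rose and Slc38a2 fell. Slc1a5 (ASCT2), an exchanger that brings in glutamine, measured 7.07, 7.02 and 6.87 in Sle1b.BAC, 6.79, 7.07 and 5.42 in B6.Sle1b, and 7.22, 5.69 and 6.97 in C57BL/6 in unstimulated arrays. Arrays at 4 h gave 7.37, 6.29 and 6.98 in Sle1b.BAC, 7.39, 7.32 and 6.71 in B6.Sle1b, and 7.34, 7.17 and 6.47 in C57BL/6. Arrays at 24 h gave 8.35, 8.12 and 8.03 in Sle1b.BAC, 7.97, 8.22 and 7.35 in B6.Sle1b, and 7.91 and 7.56 in C57BL/6. The 24 h arrays lay above every unstimulated array but reached into the 4 h range. Slc1a5 rose 2.35-fold at 24 h against unstimulated (log2 1.24 ± 0.24, adjusted p = 1.48e-04) and by 0.91 ± 0.24 against 4 h (adjusted p = 0.00353). A second Slc1a5 probe set, also above background in all groups, gave 0.02 and -0.39, the last of these called in the opposite direction (adjusted p = 0.0430, over all probe sets), so the rise holds for 1 of its 2 probe sets. Without the 3 dim arrays the rise against unstimulated was 0.91.

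Slc38a1 (SNAT1), a sodium-driven importer of glutamine and other small neutral amino acids, measured 7.69, 7.71 and 7.44 in Sle1b.BAC, 7.73, 7.80 and 7.05 in B6.Sle1b, and 7.87, 6.66 and 7.91 in C57BL/6 in unstimulated arrays. At 4 h it measured 8.20, 7.19 and 7.81 in Sle1b.BAC, 8.15, 8.27 and 7.71 in B6.Sle1b, and 8.09, 7.91 and 7.13 in C57BL/6. At 24 h it measured 8.55, 8.36 and 8.49 in Sle1b.BAC, 8.40, 8.48 and 8.17 in B6.Sle1b, and 8.43 and 8.32 in C57BL/6. The 24 h arrays exceeded all unstimulated arrays. The rise was 0.86 ± 0.18 against unstimulated (adjusted p = 3.97e-04) and 0.57 ± 0.18 against 4 h (adjusted p = 0.0156), and a second probe set above background in all groups gave 0.12 and 0.15, neither called. Slc38a2 (SNAT2), the relative of Slc38a1 whose expression is known to rise when cells are short of amino acids, ran the other way. It measured 9.86, 9.78 and 9.68 in Sle1b.BAC, 9.77, 9.91 and 9.47 in B6.Sle1b, and 9.87, 9.49 and 9.76 in C57BL/6 in unstimulated arrays. The 4 h values were 9.15, 8.70 and 9.15 in Sle1b.BAC, 9.23, 9.17 and 9.06 in B6.Sle1b, and 9.15, 8.90 and 8.94 in C57BL/6. The 24 h values were 8.65, 8.59 and 8.63 in Sle1b.BAC, 8.36, 8.59 and 8.15 in B6.Sle1b, and 8.54 and 8.58 in C57BL/6. The 3 times did not overlap, with each array at 4 h below each unstimulated array and above each array at 24 h. The log2 difference was -0.68 ± 0.08 at 4 h (adjusted p = 1.43e-06) and -1.21 ± 0.08, or 2.32-fold, at 24 h (adjusted p = 5.33e-11). Of its other probe sets, both above background in all groups, 1 gave -0.42 and -1.5, both called, and the other gave -0.02 and -0.18, neither called. Slc38a2, like Slc3a2, fell over the times at which the plasma cell and erythroid marker sums fell; their part in this was not tested.

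Other Slc38a genes divided between falls and a passing rise. Slc38a6 measured 5.85, 6.01 and 5.74 in Sle1b.BAC, 5.92, 6.09 and 4.34 in B6.Sle1b, and 5.95, 5.12 and 5.97 in C57BL/6 in unstimulated arrays. Arrays at 4 h gave 5.26, 4.03 and 4.91 in Sle1b.BAC, 5.07, 5.16 and 4.98 in B6.Sle1b, and 5.14, 4.68 and 4.97 in C57BL/6. Arrays at 24 h gave 4.38, 4.65 and 4.70 in Sle1b.BAC, 4.66, 4.62 and 3.86 in B6.Sle1b, and 4.68 and 4.69 in C57BL/6. It fell by a log2 difference of -0.75 ± 0.20 at 4 h (adjusted p = 0.0102) and -1.12 ± 0.21 at 24 h (adjusted p = 1.32e-04), and the dim unstimulated array of B6.Sle1b was the 1 unstimulated array inside the 24 h range. Slc38a10 fell at 4 h alone, by a log2 difference of -0.25 ± 0.08 (adjusted p = 0.0287), a call lost in 9 of 26 fits that each left out 1 array, with adjusted p up to 0.0748; its 7 other probe sets were not called at 4 h, while 3 of them were lower at 24 h (-0.64, -0.32 and -0.31, called). Slc38a5 was called lower at 24 h (adjusted p = 0.00373) but lay above background in no group, so no fold is given.

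**Figure D3:**
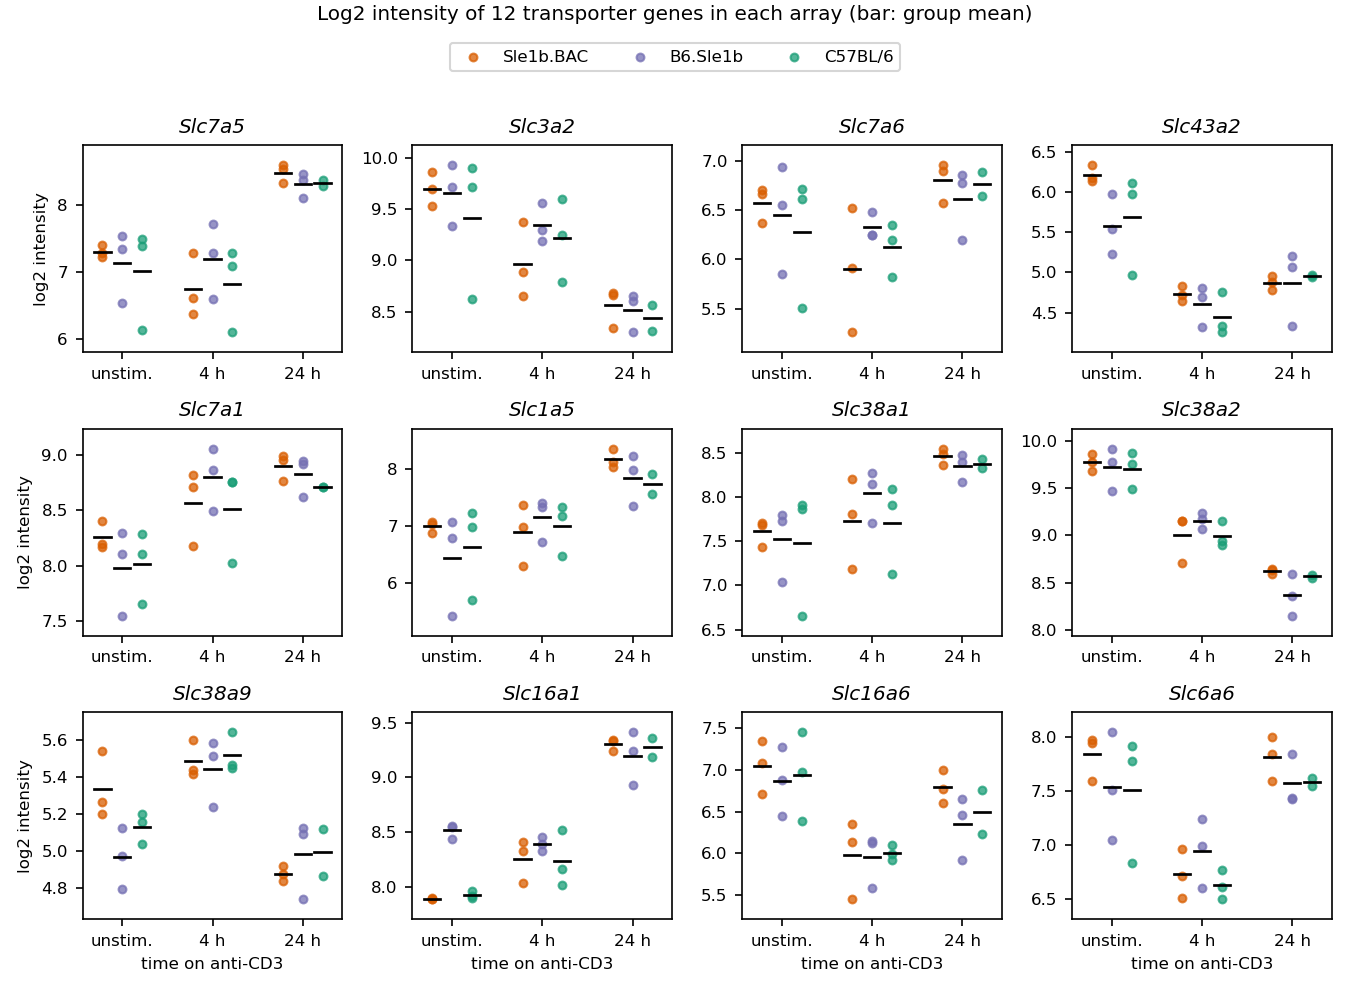
Log2 intensity of 12 transporter genes in each of 26 arrays (points, coloured by strain) with the group mean (bar), at 3 times on anti-CD3; each panel has its own axis, which does not start at 0. Slc7a5, Slc1a5, Slc38a1 and Slc16a1 are highest at 24 h, Slc3a2 and Slc38a2 lowest at 24 h, Slc16a6 and Slc6a6 lowest at 4 h and Slc38a9 highest at 4 h.

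At the lysosome, Slc38a9 senses arginine for mTORC1 and Slc36a1 (PAT1) exports small amino acids with protons. Slc38a9 measured 5.20, 5.54 and 5.27 in Sle1b.BAC, 4.79, 5.13 and 4.97 in B6.Sle1b, and 5.04, 5.16 and 5.20 in C57BL/6 in unstimulated arrays. At 4 h it measured 5.60, 5.44 and 5.42 in Sle1b.BAC, 5.52, 5.24 and 5.59 in B6.Sle1b, and 5.46, 5.45 and 5.64 in C57BL/6. At 24 h it measured 4.92, 4.84 and 4.88 in Sle1b.BAC, 4.74, 5.12 and 5.09 in B6.Sle1b, and 4.87 and 5.12 in C57BL/6. All 4 h arrays lay above all 24 h arrays, and 2 unstimulated Sle1b.BAC arrays reached into the 4 h range. It rose by 0.34 ± 0.07 at 4 h (adjusted p = 0.00176) and was lower at 24 h than at 4 h by a log2 difference of -0.53 ± 0.08 (adjusted p = 5.59e-06), with 24 h against unstimulated not called (adjusted p = 0.0515). In that last comparison 1 of its other probe sets, above background in 8 groups, was called lower (-0.82, adjusted p = 0.00204 among all probe sets), and the remaining ones gave -0.24 and 0.05, not called. Its 3 other probe sets gave between 0.24 and 0.26 at 4 h, none of them called, and -0.50, -1.08 and -0.19 at 24 h against 4 h, with all but the last called. Slc36a1 fell by a log2 difference of -0.45 ± 0.14 at 4 h (adjusted p = 0.0305), with values 4.13 to 5.12 (median 4.38) at 4 h and 4.47 to 5.34 (median 4.95) in unstimulated arrays. That call was lost in 9 of the 26 fits that each left out 1 array, with adjusted p up to 0.0787.

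Slc16a1 (MCT1), which moves lactate and pyruvate in either direction, had the smallest adjusted p of the 71 genes at 24 h. It measured 7.89, 7.89 and 7.89 in Sle1b.BAC, 8.55, 8.56 and 8.44 in B6.Sle1b, and 7.96, 7.91 and 7.90 in C57BL/6 in unstimulated arrays. The 4 h values were 8.32, 8.03 and 8.41 in Sle1b.BAC, 8.39, 8.45 and 8.33 in B6.Sle1b, and 8.17, 8.52 and 8.02 in C57BL/6. The 24 h values were 9.24, 9.34 and 9.33 in Sle1b.BAC, 9.41, 9.24 and 8.93 in B6.Sle1b, and 9.36 and 9.18 in C57BL/6. All 24 h arrays lay above all others. The rise was 1.15 ± 0.08, or 2.21-fold, against unstimulated (adjusted p = 2.64e-11) and 0.96 ± 0.08 against 4 h (adjusted p = 7.24e-10). At 4 h against unstimulated it was 0.18 ± 0.07 and not called (adjusted p = 0.0960). Its second probe set lay above background in no group, and gave 0.03.

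The other monocarboxylate carriers were dimmer or moved at 4 h. Slc16a3 (MCT4), known for lactate export from glycolytic cells, lay above background only in the 3 groups at 24 h. Its values were 2.36 to 2.95 (median 2.69) in unstimulated arrays, 2.49 to 2.85 (median 2.71) at 4 h and 2.73 to 3.37 (median 3.19) at 24 h. It was at least 1.09-fold higher at 24 h than in unstimulated cells (log2 0.41 ± 0.09, adjusted p = 6.24e-04) and at least 1.10-fold higher than at 4 h (log2 0.42 ± 0.09, adjusted p = 5.52e-04). Slc16a13 was called higher at 4 h (adjusted p = 0.0373), with no size given because some groups lay at background at both times, and was at least 1.18-fold higher at 24 h than in unstimulated cells (adjusted p = 0.00222). Its values were 2.44 to 3.11 (median 2.79) in unstimulated arrays, 2.63 to 3.70 (median 3.05) at 4 h and 3.0 to 3.54 (median 3.22) at 24 h, and its 4 h call was lost in 11 of the 26 fits that each left out 1 array. Slc16a5 was above background only in C57BL/6 at 24 h. It was called higher at 24 h than at 4 h (adjusted p = 0.00164), with no size given because all 4 h groups and 2 of the 24 h groups lay at background, and its call against unstimulated (adjusted p = 0.0438) was lost in 14 of those 26 fits.

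Slc16a6 and Slc6a6 were low at 4 h and higher again at 24 h. Slc16a6 (MCT7), which exports ketone bodies from the liver in zebrafish, measured 7.09, 7.35 and 6.72 in Sle1b.BAC, 6.88, 7.27 and 6.44 in B6.Sle1b, and 7.45, 6.38 and 6.98 in C57BL/6 in unstimulated arrays. Arrays at 4 h gave 6.35, 5.45 and 6.13 in Sle1b.BAC, 6.12, 6.15 and 5.59 in B6.Sle1b, and 6.10, 5.99 and 5.92 in C57BL/6. Arrays at 24 h gave 6.6, 6.77 and 7.0 in Sle1b.BAC, 6.66, 6.46 and 5.93 in B6.Sle1b, and 6.76 and 6.24 in C57BL/6. Every 4 h array lay below every unstimulated array. It fell by a log2 difference of -0.97 ± 0.16 at 4 h (adjusted p = 8.95e-05) and was higher at 24 h than at 4 h by 0.57 ± 0.17 (adjusted p = 0.00898), a call lost when the first C57BL/6 array at 24 h was left out (adjusted p = 0.0509). The difference at 24 h against unstimulated was -0.40 ± 0.17, not called (adjusted p = 0.0580), and -0.57, called, without the 3 dim arrays.

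Slc6a6 (TauT), the taurine importer, measured 7.98, 7.95 and 7.60 in Sle1b.BAC, 7.51, 8.05 and 7.04 in B6.Sle1b, and 7.78, 6.84 and 7.92 in C57BL/6 in unstimulated arrays. At 4 h it measured 6.96, 6.5 and 6.71 in Sle1b.BAC, 6.99, 7.24 and 6.6 in B6.Sle1b, and 6.77, 6.61 and 6.5 in C57BL/6. At 24 h it measured 7.85, 7.59 and 8.01 in Sle1b.BAC, 7.85, 7.43 and 7.44 in B6.Sle1b, and 7.62 and 7.55 in C57BL/6. All 24 h arrays lay above all 4 h arrays, and the 2 dim unstimulated arrays lay in the 4 h range. It fell by a log2 difference of -0.86 ± 0.15 at 4 h (adjusted p = 1.14e-04) and rose by 0.89 ± 0.15 at 24 h against 4 h (adjusted p = 4.13e-05). The difference at 24 h against unstimulated was 0.03 ± 0.15 (adjusted p = 0.915). Of its other probe sets, 1 gave -0.76 and 1.07 for the same 2 changes, both called, and another above background in all groups gave 0.14 and -0.034. The creatine importer Slc6a8 was not called at any time, at 0.11 ± 0.09 at 4 h and 0.00 ± 0.09 at 24 h, although its second probe set, above background in 4 groups, gave -0.41 at 24 h, called (adjusted p = 7.01e-04 among all probe sets).

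**Figure D4:**
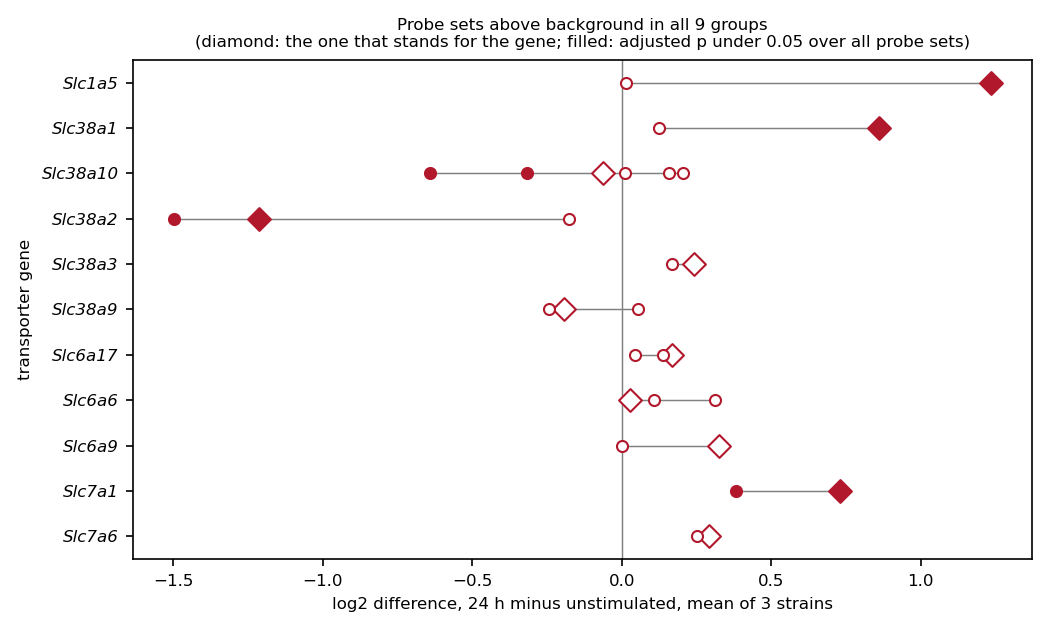
Log2 difference at 24 h against unstimulated for each probe set above background in all 9 groups, for genes with several such probe sets; the diamond is the probe set that stands for the gene, circles are the others, and filled symbols have an adjusted p under 0.05 over all probe sets. The Slc1a5 probe sets lie at 1.24 and 0.02, the Slc38a1 probe sets at 0.86 and 0.12, and those of Slc38a2 at -1.21, -1.5 and -0.18.

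Probe sets of 1 gene did not always move together. At 24 h against unstimulated, the called genes had 5 other probe sets above background in all 9 groups, of which all 5 shared the sign and 2 were called. For 24 h against 4 h there were 9, of which 7 shared the sign, 4 of them called, and 1 was called in the opposite direction, that of Slc1a5. At 4 h there were 12, of which 11 shared the sign and 2 were called. The probe sets of a gene may read different transcript ends, which was not analysed here.

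Within strains, the calls were fewer. In Sle1b.BAC, 0 genes rose and 5 fell at 4 h, where 4.22% and 6.35% of all genes did and 12 of the 71 had an unadjusted p under 0.05, and 6 rose and 7 fell at 24 h, where 17.2% and 11.9% did. At 24 h against 4 h, 10 rose and 1 fell in that strain, where 16.9% and 7.82% of all genes did. In B6.Sle1b, 2 rose and 2 fell at 4 h (2.57% and 3.12% of all genes), 7 rose and 6 fell at 24 h (14.8% and 13.4%) and 2 rose and 3 fell at 24 h against 4 h (13.1% and 11.1%). In C57BL/6, with 2 arrays at 24 h, 0 rose and 4 fell at 4 h (4.08% and 2.97%, with 8 of the 71 at an unadjusted p under 0.05), 4 rose and 2 fell at 24 h (15.7% and 8.6%) and 4 rose and 1 fell at 24 h against 4 h (12% and 6.67%). Slc43a2 and Slc38a2 fell at 4 h in each strain. At 24 h against unstimulated, Slc7a5, Slc16a1 and Slc7a1 rose and Slc3a2 and Slc38a2 fell in each strain. The rise of Slc7a5 at 24 h was 1.18 ± 0.35 in Sle1b.BAC, 1.18 ± 0.35 in B6.Sle1b and 1.32 ± 0.39 in C57BL/6. The fall of Slc3a2 was -1.14 ± 0.26 in Sle1b.BAC, -1.14 ± 0.26 in B6.Sle1b and -0.98 ± 0.29 in C57BL/6. Among rises and falls together, Sle1b.BAC at 4 h had 10 without its replicate 1 at 4 h and 3 without unstimulated replicate 1 or 2. At 24 h it had 8 without unstimulated replicate 2 or 3, and at 24 h against 4 h 7 without replicate 2 at 4 h and 6 without replicate 3 at 24 h. B6.Sle1b at 4 h had 0 without unstimulated replicate 1, 2 without unstimulated replicate 2 and 1 without replicate 3 at 4 h. At 24 h against 4 h it had 3 without replicate 3 at 4 h or replicate 1 at 24 h. C57BL/6 at 4 h had 2 without any 1 of its 4 h arrays or unstimulated replicate 1 or 3, at 24 h 3 without replicate 1 at 24 h, and at 24 h against 4 h 2 without replicate 3 at 4 h and 1 without replicate 1 at 24 h.

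Between strains, no transporter gene was called. The 12 contrasts, made of 3 strain pairs at the 3 times and averaged over them, gave 0 calls among the 71 genes with limma, by the same rule that called few of all genes. For Sle1b.BAC over B6.Sle1b that share was 0.0819% in unstimulated cells, 0% at 4 h, 0% at 24 h and 0.0819% over the times. For Sle1b.BAC over C57BL/6 it was 0.0585%, 0.0643%, 0.0351% and 0.228%, and for B6.Sle1b over C57BL/6 0.123%, 0.0409%, 0.0409% and 0.333%, in the same order. At an unadjusted p under 0.05 there were 0 to 6 of the 71 per contrast. Over the 12 contrasts there were 2 calls without C57BL/6 replicate 2 at 4 h, 2 without B6.Sle1b replicate 3 at 24 h, 1 without Sle1b.BAC replicate 2 at 4 h and 1 without unstimulated C57BL/6 replicate 2. The 95% intervals had a median half-width of log2 0.41 in unstimulated cells and at 4 h, for the 32 genes above background in all groups, so for a typical such gene a strain difference under that size could not be told from none. These intervals are not adjusted for the number of genes, so a call needed a larger difference still. No transporter gene was called in its response either, in 6 tests of the difference between responses at 4 h or 24 h. In those 0 to 5 of the 71 had an unadjusted p under 0.05, the smallest adjusted p was 0.433, and over all genes 1 was called, in the 24 h response of Sle1b.BAC against B6.Sle1b (0.00585%, and 0% in the other 5 tests). Their 95% intervals had a median half-width of log2 0.58 to 0.61 for the same 32 genes, and up to 1.23. Differences in response under such sizes could not be told from none.

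The nearest to a strain difference was Slc16a1 in unstimulated cells. Its values, given above, were 7.89 in all 3 Sle1b.BAC arrays, 8.44 to 8.56 in B6.Sle1b and 7.90 to 7.96 in C57BL/6, and B6.Sle1b did not overlap either of the others. Sle1b.BAC was lower than B6.Sle1b by a log2 difference of -0.62 ± 0.13 (adjusted p = 0.0663), and B6.Sle1b higher than C57BL/6 by 0.59 ± 0.13 (adjusted p = 0.0909). Neither was called, and Sle1b.BAC and C57BL/6 differed by -0.03 ± 0.13. Both differences were called under some other settings, among them with the values quantile normalized again (adjusted p = 0.0148 and 0.0369) and with array brightness as a covariate (0.00724 and 0.0213). At 4 h and 24 h the strains overlapped. The rise at 24 h was 1.41 ± 0.13 in Sle1b.BAC, 0.68 ± 0.13 in B6.Sle1b and 1.35 ± 0.14 in C57BL/6. The difference between the responses of Sle1b.BAC and B6.Sle1b was 0.74 ± 0.18 (adjusted p = 0.433), and that between B6.Sle1b and C57BL/6 -0.67 ± 0.19 (adjusted p = 0.743). Neither was called, and both were with array weights, whose estimation stopped before convergence (adjusted p = 0.00457 and 0.0473).

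**Figure D5:**
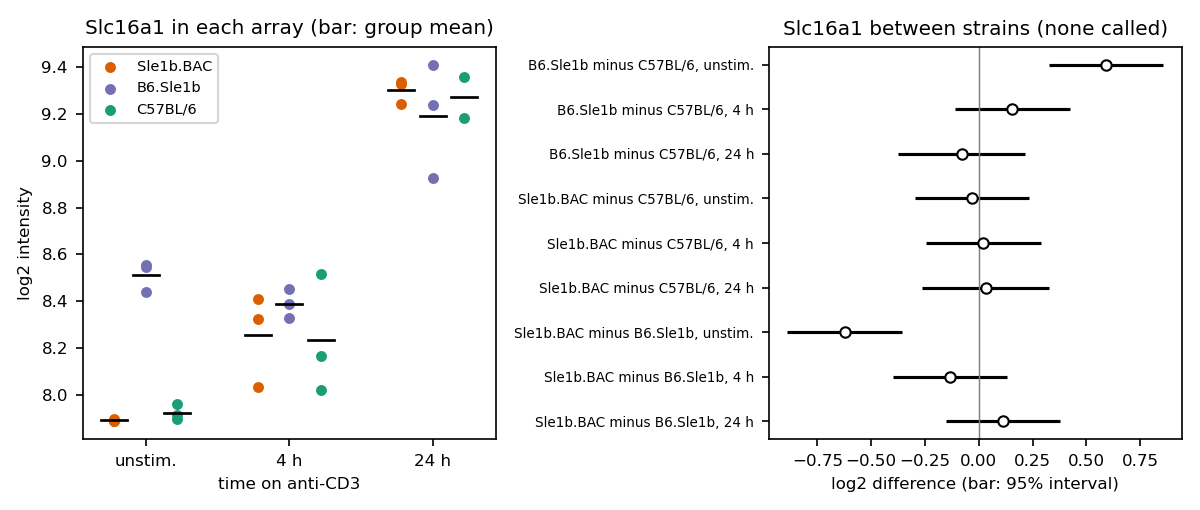
Left, log2 intensity of Slc16a1 in each array (points by strain, bar at the group mean, axis not starting at 0) at 3 times on anti-CD3. Right, log2 difference between strains at each time with its 95% interval; open points mark an adjusted p of 0.05 or more. Unstimulated B6.Sle1b arrays sit at 8.44 to 8.56, apart from both other strains, and the strains overlap at 4 h and 24 h.

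For Slc7a7 the difference of B6.Sle1b minus C57BL/6, over the mean of the 3 times, was -0.53 ± 0.15, not called (adjusted p = 0.278). At 24 h its values were 3.30, 2.76 and 3.24 in B6.Sle1b and 3.78 and 3.71 in C57BL/6, and at 4 h 3.58, 3.55 and 3.72 in B6.Sle1b and 4.69, 4.09 and 3.93 in C57BL/6, with no overlap at either time. The summed B cell markers were also lower in B6.Sle1b, at 163 to 275 against 352 to 510 in C57BL/6 at 4 h. The NK cell sum was lower as well, and at 24 h both sums were again lower in B6.Sle1b without overlap. The monocyte and macrophage sum went the other way at 24 h, at 117 to 129 in B6.Sle1b against 57.3 to 65.6 in C57BL/6. Neutrophil and plasma cell sums were also higher in B6.Sle1b at 24 h, without overlap. The part of these markers in the Slc7a7 difference was not tested. In unstimulated cells Slc43a2 was higher in Sle1b.BAC than in B6.Sle1b by 0.63 ± 0.25 (adjusted p = 0.521) and Slc38a9 by 0.37 ± 0.13 (adjusted p = 0.462), neither called.

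Genes that work beside these transporters were listed by function, with earlier results of these data known. Of 11 measured partners and other carriers, 3 rose and 1 fell at 4 h, 6 rose and 2 fell at 24 h, and 5 rose and 3 fell at 24 h against 4 h. Basigin (Bsg), the chaperone of Slc16a1 and Slc16a3, rose by 0.28 ± 0.09 at 4 h and 0.98 ± 0.10 at 24 h. Embigin (Emb), a chaperone best known for Slc16a7, fell by a log2 difference of -0.76 ± 0.06 and -2.32 ± 0.06. The folate carrier Slc19a1 rose by 2.57 ± 0.11 and the nucleoside carrier Slc29a1 by 1.44 ± 0.14 at 24 h. Of 5 measured lactate and pyruvate genes, 0 were called at 4 h by limma (2 with an unadjusted p under 0.05), 3 rose and 1 fell at 24 h, and 3 rose at 24 h against 4 h. Lactate dehydrogenase Ldha rose by 1.41 ± 0.07 at 24 h, as Slc16a1 did, and the pyruvate dehydrogenase kinases Pdk1 and Pdk3 by 0.92 ± 0.09 and 0.92 ± 0.14, while Ldhb fell by a log2 difference of -0.19 ± 0.07.

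Of 12 measured genes of glutamine, methionine and polyamine use, 2 rose and 3 fell at 4 h, 6 rose and 2 fell at 24 h, and 7 rose and 1 fell at 24 h against 4 h. At 24 h Bcat1, which transaminates leucine, isoleucine and valine in the cytosol, rose by 4.24 ± 0.13, spermidine synthase Srm by 3.87 ± 0.20, spermine synthase Sms by 1.32 ± 0.06 and Ahcy, which clears S-adenosylhomocysteine, by 1.16 ± 0.06. At 4 h Srm rose by 1.42 ± 0.19 and Bcat1 by 0.78 ± 0.12, while Ahcy and ornithine decarboxylase Odc1, the first enzyme of polyamine synthesis, fell by log2 differences of -0.31 ± 0.06 and -0.35 ± 0.08. Odc1 was also lower at 24 h than at 4 h (-1.11 ± 0.08). Of 18 measured genes of amino acid sensing at mTORC1, 4 rose and 4 fell at 4 h, 9 rose and 6 fell at 24 h, and 4 rose and 5 fell at 24 h against 4 h. The Rag GTPase Rragd rose by 3.65 ± 0.14 at 4 h and 2.02 ± 0.14 at 24 h, and Sesn1, of the sestrin family that holds mTORC1 back when leucine is short, fell by a log2 difference of -1.09 ± 0.10 and -1.55 ± 0.10. The Ragulator subunits Lamtor2 and Lamtor4 rose by 0.91 ± 0.07 and 1.15 ± 0.11 at 24 h. Of 9 regulators of MYC and the amino acid stress response, 1 rose and 1 fell at 4 h, 2 rose and 3 fell at 24 h, and 4 rose and 2 fell at 24 h against 4 h. Myc rose by 2.26 ± 0.14 at 4 h and 2.84 ± 0.15 at 24 h. Slc7a5 and Slc1a5 were called at 24 h and not at 4 h, and a link to Myc was not tested. At 4 h Slc1a5 differed by 0.33 ± 0.23 and its second probe set by 0.41, neither called. Nfe2l2, a regulator of the oxidative stress response, fell by a log2 difference of -0.63 ± 0.07 and the stress factor Ddit3 by -0.53 ± 0.06 at 24 h. The shares of all genes called in each comparison, given above, are the measure for these counts.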

How the data were processed

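The deposited table holds linear intensity values per probe set, made by the authors with RMA (robust multi-array average, which corrects background, quantile normalizes and sums probes) per the submitters' processing notes. The version is not given in the sources used here. Over the 26 arrays the 75th percentile of intensity ranged from 34.2 to 53.3 and the median from 9.12 to 10.5. Arrays quantile normalized together would be expected to lie closer. Whether that step was applied over all arrays could not be told. These intensities were taken to log2 here, probe sets with 1 gene symbol in the platform annotation were kept, and the brightest by mean log2 over 26 arrays stood for its gene. One limma 3.58.1 fit in R 4.3.3 held 9 group means, with empirical Bayes moderation and Benjamini-Hochberg adjustment over 17097 genes in each of 30 contrasts. Mean responses weight the 3 strains equally. The 2 arrays titled technical, both C57BL/6 at 24 h, entered only alternatives, and no arrays held identical values. The number of arrays limits the precision.

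The members and lists were chosen with earlier results of these data known. All members called in a mean response were named, with the strain differences of smallest p. Other genes were named by their smallest adjusted p in each list, up to 4 a list and comparison. Replicate numbers were not taken as pairs in the main fit, and the labels do not say what arrays of 1 number share. Deviations of same-numbered arrays had a median correlation of 0.0597, from -0.815 to 0.816. Within a strain it was 0.158 for same-numbered arrays (-0.358 to 0.816) and -0.0951 for arrays of other numbers, and the estimated correlation within blocks of strain and number was 0.154. Same-numbered arrays of a strain were thus somewhat more alike by median, which the main fit left out and the fits with blocks took in. The fit was tested on simulated data. Alternatives were other centring, normalization, array sets, weights, covariates, blocks, probe sets and leaving out each array in turn. Promoter sequences are from RefSeq.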

Additional observations from a re-analysis of the deposited data

How the results depend on the processing

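Counts of called transporter genes are given here under each alternative that moved them by over 1.5 times; the cause was not tested. Shares of all genes are given for the mean responses only. Counts in this section with no such share, among them those within and between strains, do not tell the transporter genes from other genes. With array brightness as a covariate, 7 rose at 4 h (12.9% of all genes rose), 11 fell at 24 h against unstimulated (19.7% of all genes) and 7 fell at 24 h against 4 h (18.1%). Under it the changes within strains numbered 9 at 4 h in Sle1b.BAC, 10 at 4 h and 12 at 24 h against 4 h in B6.Sle1b, and 7, 14 and 13 in C57BL/6 (4 h, 24 h, 24 h against 4 h), with 2 strain differences. With array weights, whose estimation stopped before convergence, 7 rose at 4 h (13% of all genes), and 25 rose and 12 fell at 24 h (36.5% and 22.6% of all genes). Within strains these weights gave 24 and 7 changes in Sle1b.BAC (24 h, 24 h against 4 h), 15, 26 and 15 in B6.Sle1b and 15, 14 and 8 in C57BL/6, with 21 strain differences and 9 differences in response. Without the 3 dim arrays 5 rose at 4 h (11.9% of all genes) and 19 at 24 h (31.1%), and B6.Sle1b had 9, 21 and 13 changes, C57BL/6 11 at 24 h against 4 h and strains 1 difference. Median centring gave 5 falls at 4 h, 8 changes at 24 h in Sle1b.BAC and 2 at 4 h in each of B6.Sle1b and C57BL/6. All 28 arrays gave 11 falls at 24 h, 12 and 8 changes in C57BL/6 (24 h, 24 h against 4 h) and 1 strain difference, and the technical pair as 1 array gave 11, 8 and 1 for the last 3 of these. A random block of strain and number gave 11 falls at 24 h, 9 changes at 4 h in Sle1b.BAC and 8 at 24 h against 4 h in C57BL/6. The mean over probe sets left 1 change at 4 h in B6.Sle1b. Fits of the compared groups alone left 0, 8 and 13 in B6.Sle1b (4 h, 24 h, 24 h against 4 h) and 0 and 3 in C57BL/6 (4 h, 24 h), and quantile normalization again gave 9 in B6.Sle1b at 24 h against 4 h, 10 in C57BL/6 at 24 h and 2 strain differences. With the replicate block, 3 rose and 9 fell at 4 h, 9 rose and 10 fell at 24 h, and 11 rose and 5 fell at 24 h against 4 h. The shares of all genes under it were 8.42% and 10.6%, 23.4% and 17.8%, and 20.7% and 14.4%, in that order. Of all genes, 8.84% fell at 4 h with median centring. At 24 h against unstimulated, 18.1% fell with all 28 arrays and 18.3% with the random block.

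Leaving out 1 array at a time gave 2 to 5 rises and 5 to 9 falls at 4 h, 8 to 15 and 6 to 10 at 24 h, and 10 to 13 and 4 to 7 at 24 h against 4 h. Within strains the changes ranged from 3 to 10, 8 to 13 and 6 to 14 in Sle1b.BAC, 0 to 5, 9 to 14 and 3 to 7 in B6.Sle1b, and 2 to 4, 3 to 9 and 1 to 7 in C57BL/6. Between strains there were 0 to 2 calls, and in response differences 0 in each such fit. The direction turned in other probe sets of the same gene and in no other alternative: Slc7a1 (-0.055 at 4 h and -0.059 at 24 h), Slc6a6 (0.14 and 0.033 at 4 h, -0.034 and -0.049 at 24 h against 4 h), Slc7a13 (0.018 at 24 h) and Slc1a5 (-0.39 at 24 h against 4 h). Of the values of single genes under alternatives, 3486 kept direction and call, 110 became called, 99 lost the call and 8 turned direction. No scaling moved the median of all genes by over 0.1 on the log2 scale or the share of rises among calls by over 10 points.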
